A study of Mus musculus with 4 samples.

Results

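Granins are acidic proteins of dense-core secretory granules, the vesicles in which neurons and endocrine cells store peptides. They are stored beside the proprotein convertases and the carboxypeptidase that cut and trim peptide precursors, among them the opioid precursors proenkephalin (Penk) and prodynorphin (Pdyn). The genes described here are 5 granins or granin-like proteins (Chga, Chgb, Scg2, Scg3 and Scg5), 2 convertases (Pcsk1 and Pcsk2), carboxypeptidase E (Cpe), Penk and Pdyn. They were taken by gene symbol from the annotation of the array. Of the 10 genes, 9 had a probe set under their symbol, with 16 probe sets among the 12422 of the array that are not manufacturer controls. Pcsk2 had none and is not analysed here. Of the 16 probe sets, 13 were bright enough to be tested, out of 7237 tested in all.

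RNA came from area CA1 of the hippocampus of young male C57BL/6J mice, an inbred strain, with 1 sample and 1 Affymetrix array at each of 1, 2, 4 and 6 h. All 4 samples were controls that had been handled and otherwise left untreated, and the hour counts from the last shock of other mice, which are not analysed here. The number of mice behind each sample is not stated in the sources used here. Each hour has 1 array, so a difference between hours could not be set against replicates, and the comparisons of 2, 4 and 6 h with 1 h share the 1 h array. CA1 holds several cell types, so fewer cells of a type and less RNA per cell cannot be told apart in any value below.

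Dense-core granules bud from the trans-Golgi network, where granins aggregate with peptide precursors. The convertases then cut the precursors after pairs of basic residues, and carboxypeptidase E removes the basic residues that are left. In the rodent hippocampus prodynorphin is known from dentate granule cells and their mossy fibres, and proenkephalin from some interneurons and from incoming entorhinal fibres. The promoters of several granule genes are also known to carry a cAMP response element, the site through which CREB raises transcription.

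The promoters of 4 members are shown because they share that element, which the choice of genes did not use. RefSeq promoters on build GRCm38.p6 were matched for 8 of the 10 genes, without Cpe and Penk. The motif searched was TGACGTNA on both strands, of which TGACGTCA is 1 case, within the 250 bases before each start. It was found in 4 of these 8 genes, and 3 of the 4 held TGACGTCA. Among all 32851 promoters scanned, 2.52% held the motif and 1.55% held TGACGTCA. The stretches below are the 120 bases before the start, 5′ to 3′ on the gene's strand, with the match in capitals. They lie at chr12:102554821-102554940 (plus strand) for Chga, chr2:132781522-132781641 (plus) for Chgb, chr1:79440027-79440146 (minus) for Scg2 and chr13:75089737-75089856 (plus) for Pcsk1.
Chga: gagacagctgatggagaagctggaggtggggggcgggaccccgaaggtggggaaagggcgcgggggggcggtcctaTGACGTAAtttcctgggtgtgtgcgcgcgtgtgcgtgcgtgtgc
Chgb: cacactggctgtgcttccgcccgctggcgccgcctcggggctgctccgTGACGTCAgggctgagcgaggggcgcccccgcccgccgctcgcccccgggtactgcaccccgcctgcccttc
Scg2: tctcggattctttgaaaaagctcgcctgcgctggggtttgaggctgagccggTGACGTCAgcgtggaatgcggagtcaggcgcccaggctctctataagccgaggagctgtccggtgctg
Pcsk1: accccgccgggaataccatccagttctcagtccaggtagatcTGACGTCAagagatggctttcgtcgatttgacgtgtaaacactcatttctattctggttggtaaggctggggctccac
The first base of the match lay 44 bases before the start in Chga, 72 in Chgb, 68 in Scg2 and 78 in Pcsk1. A match describes the letters and does not show that a factor binds there. The tested probe sets of Chgb, Scg2 and Pcsk1, the genes with TGACGTCA, were each lowest at 2 h. So were 7 of all 13 tested member probe sets, these included. Chgb was highest at 1 h, and Scg2 and Pcsk1 at 4 h. Both probe sets of Chga were lowest at 6 h. At 2 h its 92422_at was above its 1 h signal and its 162192_f_at below it. A link between the motif and the signals was not tested.

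The signal is the authors' scaled intensity of a probe set, on a linear scale. Probe sets bind with different strength, so each is compared with itself across the arrays and not with others. Signals under a floor of 36.8, the 20th percentile of all values, were raised to it before log2 was taken. Probe sets with a mean log2 signal below that of 116.4, the 40th percentile, were not tested.

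Chromogranin A, the product of Chga, helps granules to form. Its probe set 92422_at had signals of 640.3, 1211, 646 and 608 at 1, 2, 4 and 6 h, a mean of 777 ± 290.4 (SD, n = 4). The 2 h array was high and the other 3 lay within 1.06-fold of each other. The second probe set, 162192_f_at, had 459, 156, 369 and 74.0, a mean of 264 ± 179 (SD, n = 4). It was high at 1 and 4 h and low at 2 and 6 h, so it did not repeat the pattern of the first.

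Chromogranin B, the product of Chgb, had signals of 13473, 7543, 13046 and 10508 on probe set 92841_f_at, a mean of 11142 ± 2733 (SD, n = 4). It was lowest at 2 h, and its range over the arrays was 1.79-fold, or 1.28-fold without the 2 h array. Its second probe set, 92842_r_at, had 10.9, 90.8, 107 and 65.1 and was too dim to test.

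Secretogranin II, from Scg2, is the precursor of the peptide secretoneurin. It had signals of 1758, 1688, 2038 and 1889, a mean of 1843 ± 154 (SD, n = 4). All 4 arrays lay within 1.21-fold. Secretogranin III, from Scg3, links granin aggregates to the granule membrane. Its probe set 104564_at had 1098, 937, 879 and 1026, a mean of 985 ± 96.5 (SD, n = 4). On 162237_f_at it had 697, 678, 684 and 949, with the 6 h array above the other 3.

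The protein 7B2, the product of Scg5, is the chaperone that Pcsk2 needs to mature. Its signals were 1739, 1404, 1248 and 1553, a mean of 1486 ± 209.5 (SD, n = 4). They were lowest at 4 h and highest at 1 h, within 1.39-fold.

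Pcsk1 encodes the convertase PC1/3. It was dim, with signals of 120.4, 61.2, 267 and 129, a mean of 144 ± 86.9 (SD, n = 4). The 4 h array was 2.21-fold above 1 h and over 2-fold above each other array. Cpe was read by a pair of bright probe sets. On 99643_f_at it had 23661, 16529, 22054.5 and 21584, a mean of 20957 ± 3083 (SD, n = 4), with the lowest signal at 2 h. On 99642_i_at it had 13315, 11849, 11992 and 13272, a mean of 12607 ± 795 (SD, n = 4) and the smallest range of the 13 tested probe sets, 1.12-fold.

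Penk had signals of 1874, 1476, 2098 and 2174 on 94516_f_at, a mean of 1905 ± 313 (SD, n = 4). This probe set was lowest at 2 h. On 94517_r_at it had 196.5, 319, 176 and 204, a mean of 224 ± 64.5 (SD, n = 4), and was highest at 2 h. The dimmest Penk probe set, 161164_r_at, had 6.6, 16.5, 5.0 and 82.3 and was too dim to test.

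Pdyn had signals of 85.8, 216, 178 and 274 on 161987_at, a mean of 188 ± 79.1 (SD, n = 4). The 1 h array was at least 2-fold below each other array. Its second probe set, 99840_at, had 25.5, 17.7, 16.7 and 12.6, all under the floor, so it has no usable pattern. The signal of Pdyn therefore rests on 1 probe set.

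**Figure D1:**
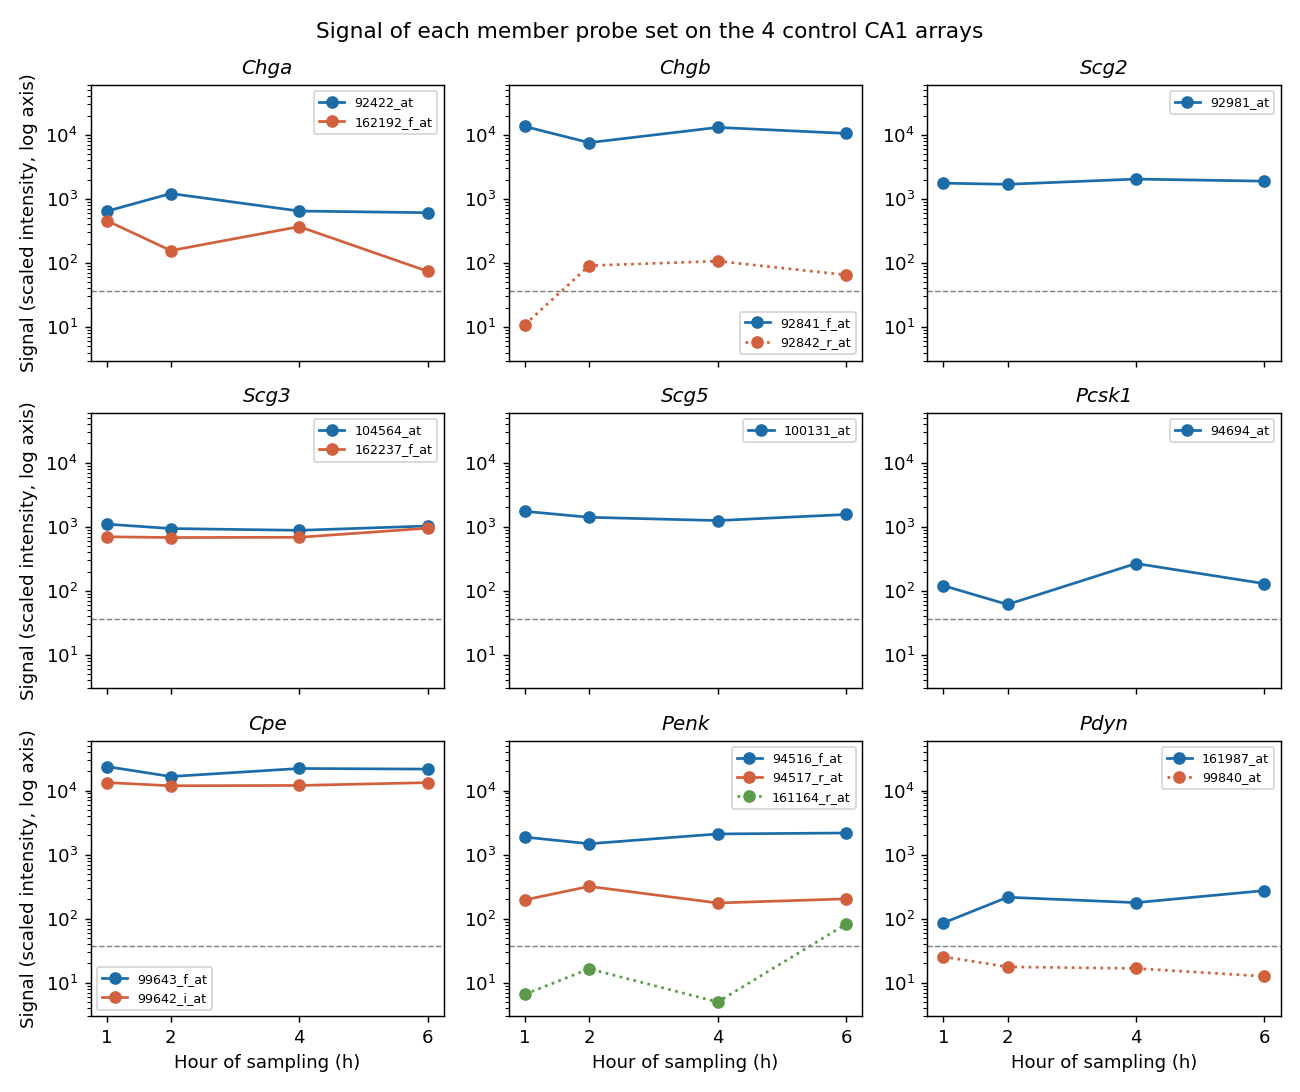
Signal of each of the 16 member probe sets (vertical, log axis) on the 1, 2, 4 and 6 h arrays (horizontal), 1 panel per gene; solid lines were tested, dotted lines were too dim, and the dashed line is the floor of 36.8. Scg2 and 99642_i_at of Cpe run nearly flat, within 1.21-fold and 1.12-fold, while the Chga probe sets part at 2 and 6 h and Pdyn is lowest at 1 h.

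The spread between the 4 arrays differed among the granule genes. Every tested probe set of Scg2, Scg3, Scg5 and Cpe stayed within a 1.5-fold range, while Chga, Chgb, Pcsk1, Pdyn and 1 of the tested probe sets of Penk did not. Of the 13 tested probe sets, 7 stayed within a 1.5-fold range, against 46.4% of all tested ones, and 3 ranged at least 2-fold, against 22.6%. Both counts lie near those backgrounds. The spread followed brightness when the tested probe sets were split into 3 equal groups by mean signal. Of the 7 member probe sets in the brightest group, 6 stayed within 1.5-fold (68.6% of that group) and 0 ranged at least 2-fold (7.13% of it). Of the 2 in the middle group, 1 stayed within 1.5-fold (47.2% of it) and 0 ranged at least 2-fold (15.5%). Of the 4 in the dimmest group, 0 stayed within 1.5-fold (23.4% of it) and 3 ranged at least 2-fold (45.3%). These 3 were 162192_f_at of Chga with a 6.20-fold range, Pcsk1 with 4.36-fold and Pdyn with 3.20-fold. Each of the 3 had 1 array under the signal of 116.4, and no other tested member had any.

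The coefficient of variation, the SD as a percent of the mean, had a median of 17.5% over the 13 probe sets and 18.9% over all tested ones. Without the 2 h array the medians were 11.1% and 15.4%. The members whose coefficient shrank most as a ratio without 2 h were 92422_at of Chga, with 3.24% in place of 37.4%, 94517_r_at of Penk, with 7.55% in place of 28.9%, and 99643_f_at of Cpe, with 4.86% in place of 14.7%. In the brightest group, 7 of 7 member probe sets then stayed within 1.5-fold, against 90.1% of all in that group. The dim probe sets stayed variable, with 67.0% for 162192_f_at of Chga and 52.6% for Pdyn without 2 h. Pcsk1 was lowest at 2 h, and without that array its coefficient was 47.6% in place of 60.2% and its range 2.21-fold in place of 4.36-fold.

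**Figure D2:**
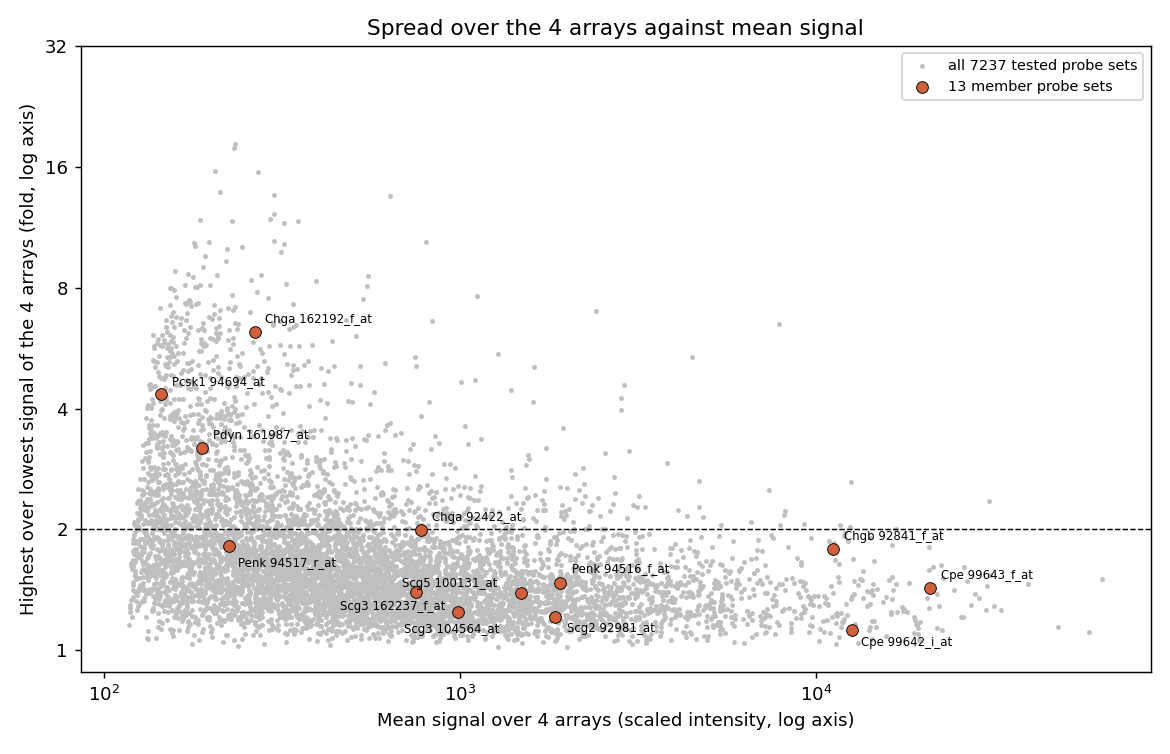
Highest over lowest signal of the 4 arrays (vertical, log axis) against mean signal (horizontal, log axis) for the 7237 tested probe sets (grey) and the 13 member probe sets (orange, labelled); the dashed line marks 2-fold. Only the dim probe sets of Chga, Pcsk1 and Pdyn lie above the line.

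The 2 h array stands apart from the others. The ratio of 3′ to 5′ signal of Gapdh, a measure of how intact or evenly copied the RNA was, had values of 4.10, 1.08, 3.62 and 3.95 over the hours in order. For Actb the ratios were 2.27, 1.72, 2.59 and 2.93, and for both genes the 2 h ratio was the lowest. It was also the nearest to 1, an equal signal at both ends. By this measure the less even arrays were those at 1, 4 and 6 h, the 1 h reference included. The SD of the log2 difference over all tested probe sets was 0.62 to 0.66 for pairs with the 2 h array and 0.54 to 0.55 for the other pairs. The part of this array in the member values at 2 h was not tested beyond leaving it out.

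At 2 h against 1 h, 10 of the 13 probe sets were lower and 3 were higher, and 50.3% of all tested ones were lower. Of all tested probe sets named with the ending _f, taken up in the last section, 67.9% were lower. The probe sets of Chga, Chgb, Scg3, Cpe and Penk with that ending are among the 10. The median log2 difference was -0.23 over the members and -0.00325 over all. Over all probe sets of the brightest group, which holds 7 of the 13, it was -0.10. Some markers of neurons in general and of other cells also differed on the 2 h array, as given with the marker lists below. For 7 of the 13 the lowest signal fell on the 2 h array, among them Chgb, Scg2, Pcsk1 and both probe sets of Cpe, against 32.0% of all tested probe sets. For 6 of the 13 the highest signal fell on the 1 h array, against 23.1% of all. Those lower at 2 h included 92841_f_at of Chgb, with a log2 difference of -0.84, and 99643_f_at of Cpe, with -0.52. The 3 that were higher were 92422_at of Chga (0.92), 94517_r_at of Penk (0.70) and Pdyn (1.33).

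Differences of at least 2-fold came from the dim probe sets. At 2 h, 1 of 13 was at least 2-fold higher than at 1 h (Pdyn, 216 against 85.8) against 6.92% of all, and 1 was at least 2-fold lower (162192_f_at of Chga, 156 against 459) against 3.29%. At 4 h, 2 were higher, Pcsk1 (267 against 120.4) and Pdyn (178 against 85.8), against 3.69%, and 0 were lower, against 2.51%. At 6 h, Pdyn was higher (274 against 85.8; 3.74% of all) and 162192_f_at of Chga lower (74.0 against 459; 2.79% of all). The median log2 difference of the members was -0.05 at 4 h and -0.00463 at 6 h, and that of all probe sets 0.02 at each. After quantile normalization neither Pcsk1 nor Pdyn reached 2-fold at 4 h, with log2 differences of 0.98 and 0.87. Measured against the mean log2 signal of the other 3 arrays, Pdyn differed by 0.42 at 2 h, 0.05 at 4 h and 0.88 at 6 h, so its 2-fold differences rest on the 1 h array.

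Pdyn, Pcsk1 and 162192_f_at of Chga each had 1 array at least 2-fold from each of the other 3. Pdyn was below at 1 h (1.45% of all tested probe sets), Pcsk1 above at 4 h (0.207%) and 162192_f_at of Chga below at 6 h (1.45%). The 2 h array stood so far from the others for 0 of 13 members, against 2.06% of all above and 1.06% below. No member was so far above at 1 h (0 of 13, against 0.0691%) or at 6 h (0 of 13, against 0.276%), or below at 4 h (0 of 13, against 1.26%).

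**Figure D3:**
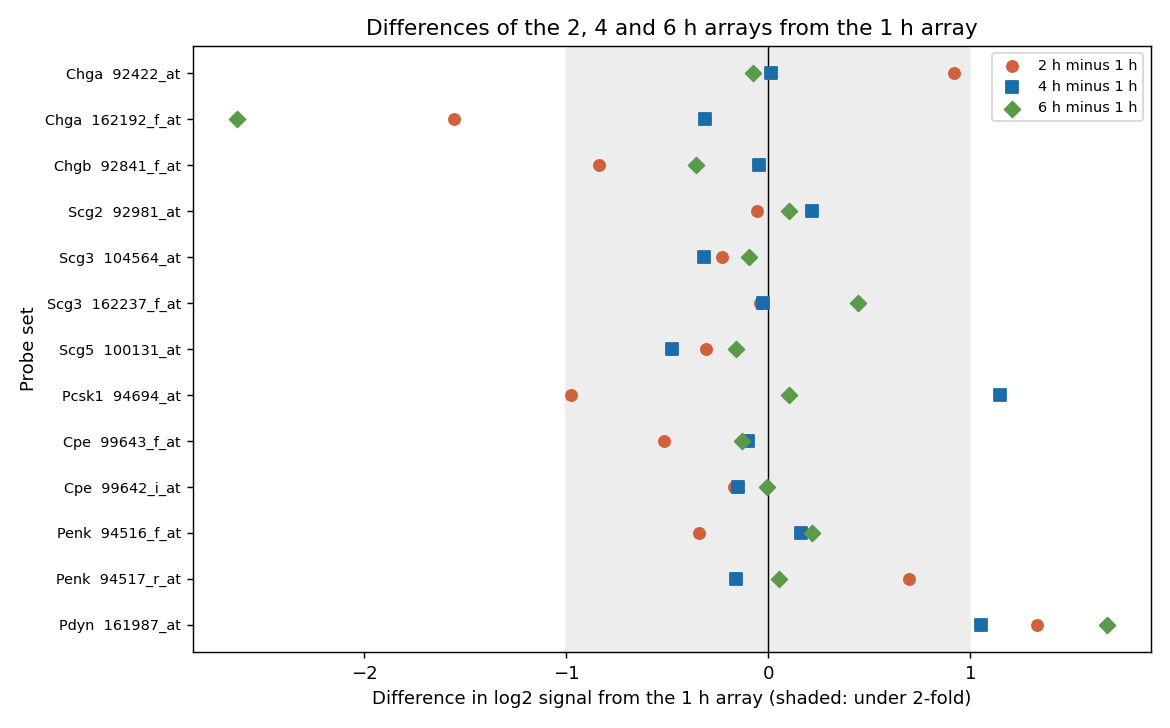
Difference in log2 signal of the 2 h (circles), 4 h (squares) and 6 h (diamonds) arrays from the 1 h array for the 13 tested member probe sets; the shaded band is under 2-fold. Outside it lie Pdyn at all 3 hours, Pcsk1 at 4 h and 162192_f_at of Chga at 2 and 6 h.

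A straight line over the hours was not called for any member. By limma, with 2 residual degrees of freedom, 0 of 13 member probe sets and 0 of 7237 in all passed an adjusted p of 0.05, 0.0% in each direction. An unadjusted p under 0.05 was reached by 0 of the 13 and by 2.71% of all. The member count was 1 without the 1 h array, 2 without the 2 h array and 1 without the 4 h array. Over all 7237 probe sets the counts in these fits were 631, 420 and 156. The steepest slopes were those of 162192_f_at of Chga, -0.37 ± 0.17 log2 per hour (SE, 4 arrays), and Pdyn, 0.25 ± 0.13, each with an adjusted p of 0.9996. When the 2 h array was left out, limma called 162192_f_at of Chga, with a slope of -0.49 and an adjusted p of 0.00904. That fit had 1 residual degree of freedom and an infinite prior, called 32 probe sets in all (0.442%), and without the 6 h array the slope was -0.00144.

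Several probe sets read 1 gene, and they did not always give the same pattern. Of the 4 member genes with a pair of tested probe sets, 2 had a gap of at least 1 in the log2 difference from 1 h at some hour. Among all 864 genes with several tested probe sets, 41.2% had one. Chga had the widest gap of the 4, with 2.48 at 2 h, 0.33 at 4 h and 2.56 at 6 h. At 2 h its 92422_at was 1.89-fold above 1 h and its 162192_f_at was at 0.340 times the 1 h signal. Penk had a gap of 1.04 at 2 h, since 94516_f_at was 0.788 times and 94517_r_at 1.62 times as high as at 1 h.

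The Penk gap fell under 1 after quantile normalization (0.87) and was 0.32 without the 2 h array, while that of Chga stayed at 2.56 without it. Scg3 reached 0.54 at 6 h and Cpe 0.35 at 2 h, so their probe sets differed less. The _f, _r and _i endings in probe set names mark relaxed designs, with probes shared within a sequence family (_f), selection rules dropped (_r) or an incomplete set (_i). Each of the 4 pairs held at least 1 such probe set, as did both probe sets of Chgb.

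**Figure D4:**
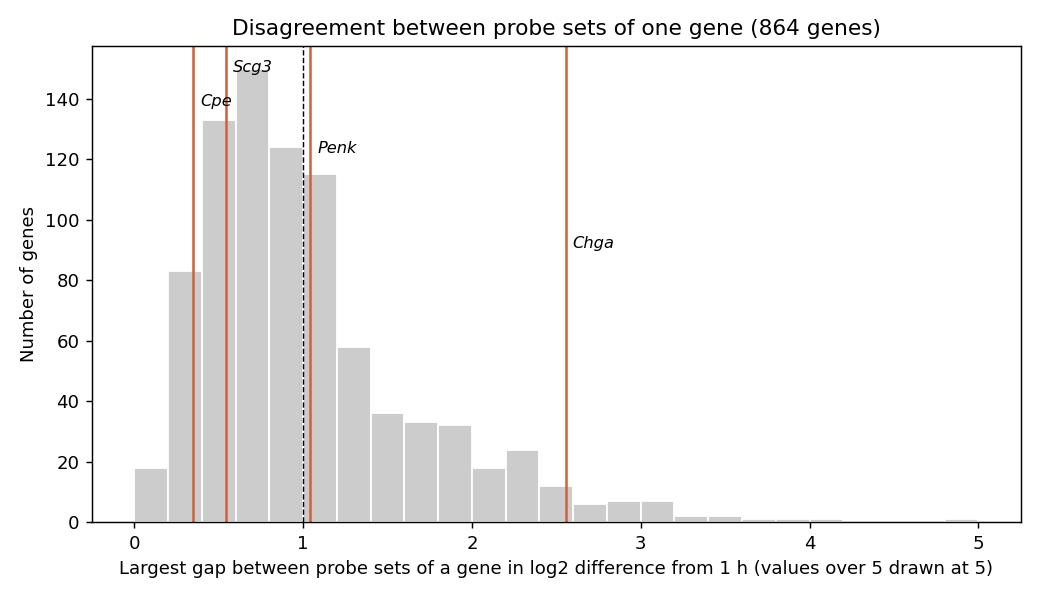
Number of genes (vertical) by the largest gap between their probe sets in log2 difference from 1 h (horizontal) for the 864 genes with several tested probe sets; orange lines mark Cpe (0.35), Scg3 (0.54), Penk (1.04) and Chga (2.56), and the dashed line a gap of 1. Cpe and Scg3 lie below 1, Penk just above it and Chga far above it.

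The other genes of the granule pathway were counted from lists, each gene through its brightest probe set, and limma called 0 of them for a trend. Among other granins and granule cargo, 3 of 4 measured were tested, with a median log2 difference of -0.05 at 2 h, and 0 differed 2-fold from 1 h at any hour. They include Pcsk1n, whose product proSAAS inhibits PC1/3, with 7329, 10863, 7206 and 7552, and Gnas, which also encodes the granin-like protein NESP55, with 37227, 32169.6, 47155 and 40825. The Gnas signal was taken by gene symbol and not separated by product, so it is not read here as a level of NESP55. Pcsk1n was highest at 2 h. Nucb1, a calcium-binding Golgi protein, had 1154, 1116.5, 1294 and 1102, and Vgf is not analysed here.

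Among other proprotein convertases, 5 of 6 measured were tested, with a median of -0.30 at 2 h. Furin, the convertase of the constitutive pathway, had 825, 648, 675 and 812 and stayed within 1.27-fold. Pcsk6 was at least 2-fold higher at 2 and 6 h, with 68.6, 403, 127 and 224. Pcsk4 had 125, 61.1, 149 and 261, at least 2-fold lower at 2 h and at least 2-fold higher at 6 h. Both were dim on at least 1 array.

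Of 9 trimming and amidation enzymes measured, 5 were tested, with a median of 0.11 at 2 h, and 0 differed 2-fold from 1 h. Pam, which amidates peptide ends, was too dim to test, with 32.5, 172, 75.7 and 23.9. Cpd, a carboxypeptidase of the trans-Golgi network, had 396, 654, 323 and 515. Ctsl, a cysteine protease known to cut proenkephalin, had 1019, 829, 810.0 and 1376, and the aminopeptidase gene Rnpep had 223, 356, 240.2 and 436. Of 17 measured genes of the granule membrane and release, 12 were tested, with a median of -0.01 at 2 h. Of these 12, 2 were at least 2-fold higher at 2 h, Syt1 (3671 against 722) and Doc2b (394 against 144). Ptprn, a granule membrane protein also called IA-2, had 2261, 3803, 2691 and 2536. Cadps, which primes granules for release, had 4468.5, 2758, 4335 and 4047. At 2 h Ptprn was higher than at 1 h and Cadps lower. Rab3a, a vesicle GTPase, had 458, 411, 724 and 768.

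Of 15 other peptide precursors measured, 13 were tested, with a median of 0.05 at 2 h. Among them Sst had 11774 ± 1158 (SD, n = 4), Cck 14202.5 ± 1618 (SD, n = 4) and Npy 2695 ± 379 (SD, n = 4), each a peptide of hippocampal interneurons. Their ranges were 1.24, 1.30 and 1.36-fold. At least 2-fold above 1 h were Pomc, the precursor of beta-endorphin, at 2 and 4 h (58.2, 258, 262 and 50.7), and Adcyap1 (338 against 124) and Trh (572 against 278) at 6 h. Cort, the cortistatin precursor, was lowest at 2 h, with 1273, 774, 1019.7 and 1107. Pnoc, the precursor of nociceptin, was too dim to test, with 102, 30.6, 58.1 and 61.0.

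The receptors of the opioid peptides were dim. Oprm1 had 4.9, 41.7, 13.3 and 13.6, Oprd1 had 23.6, 19.8, 199 and 58.1, and Oprk1, the receptor of dynorphins, had 115, 34.6, 81.6 and 112. None of these 3 was tested. Oprl1, the nociceptin receptor, had 299, 408, 464 and 415 and was tested. Of the enzymes tested that break down peptides, Ece1 had 512, 744, 483 and 631, Dpp3 had 148, 237, 219 and 197, and Ace had 161, 204, 221.0 and 98.0. Of 11 measured genes in this list 5 were tested, with a median of 0.47 at 2 h, and 0 differed 2-fold from 1 h at any hour.

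Markers of the tissue and of cells that make opioid peptides were read beside the members. CA1 pyramidal markers, 4 of 7 measured and 3 tested, summed to 4014, 3864, 4671 and 4279 at 1, 2, 4 and 6 h. Their members did not move together, since Wfs1 had 2293, 1877, 2484 and 2508 and Pou3f1 had 484, 623, 764 and 443. Interneuron markers, 12 of 13 measured and all of those tested, summed to 43256, 39544, 41779 and 40241 at 1, 2, 4 and 6 h. Cck and Sst were the brightest of them. Of the 12, 4 were above 1 h at 2 h, and they did not move together. Slc32a1 had 3861, 2019, 3318 and 3543, and Calb2 had 352.5, 329.5, 94.4 and 73.5. Gad2 had 19.2, 160, 295 and 140.5, under the floor at 1 h. Dentate granule markers, 5 of 7 measured and 2 tested, summed to 2074.5, 1879.5, 1859 and 2032. Prox1, which defines dentate granule cells, had 57.9, 12.5, 17.8 and 18.2, under the floor on 3 arrays.

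Calb1 made up most of the dentate sum, with 1714, 1532, 1607.5 and 1699.6. Prox1, Tdo2 and Pcp4 of this list were too dim to test. The sum therefore mainly follows Calb1 and does not show that dentate granule cells were present. Dsp, the other tested dentate marker, had 133, 90.5, 168 and 196. The 2 tested dentate markers did not move together, since Calb1 was highest at 1 h and Dsp at 6 h. Striatal markers, 3 of 7 measured and 2 tested, summed to 521, 437, 484 and 490.

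Several lists, though not all, were highest on the 2 h array, where 10 of the 13 members and 50.3% of all tested probe sets were below 1 h. Markers of neurons in general, 5 of 6 measured and all of those tested, summed to 28434, 35620, 30151 and 29554. Of these 5, 4 were above 1 h at 2 h, while Snap25, the brightest of them, had 18421, 17938, 19821 and 19356. Astrocyte markers, 6 of 7 measured and all of those tested, summed to 19257, 20958, 19991 and 19606. Of these 6, 4 were above 1 h at 2 h, among them Aldoc, the brightest, with 8996, 12280, 9288 and 9831. The others were lower at 2 h, Gja1 with 6125, 4422.5, 5936 and 5303 and Gfap with 2165, 1740, 2354 and 2523. The higher astrocyte sum at 2 h therefore rests on Aldoc. CA3 pyramidal markers, 4 of 6 measured and 3 tested, summed to 2149.5, 7980, 2363 and 2227, with Nnat at 931, 6529, 1180 and 979.6. Nnat made up most of the 2 h sum. Of the 3 tested, 2 were above 1 h at 2 h, while Elavl2 had 437, 387, 308 and 285. Choroid plexus markers, 5 of 7 measured and 4 tested, summed to 2214, 3213, 1904 and 2559.5. Among them Ttr had 222, 892, 107.5 and 356, and Igfbp2 had 317, 711, 332 and 350.3. Of the 4 tested, 3 were above 1 h at 2 h, while Kl had 309, 177.5, 183 and 270.5. Microglial markers, 6 of 7 measured and 5 tested, summed to 5306.5, 6248.5, 4902 and 5278, with C1qa at 905, 1623, 834.5 and 796. Of the 5 tested, 4 were above 1 h at 2 h, while Csf1r had 1724, 1334, 1604 and 1878. Endothelial and blood markers, 5 of 7 measured and 4 tested, summed to 4157, 3258, 3626 and 3145. Of the 4 tested, 0 were above 1 h at 2 h. Oligodendrocyte markers, 6 of 7 measured and 5 tested, summed to 20719.5, 20787, 26807 and 21657, highest at 4 h. Of the 5 tested, 4 were above 1 h at 2 h. A signal above 0 does not show that a cell type was present, and Coch, a CA3 marker, was under the floor at 1 and 6 h. The part of any cell type in the member values was not tested.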

How the data were processed

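Per the labels, total RNA of CA1 from 4 control samples was measured, 1 sample at each of 1, 2, 4 and 6 h. The deposited table holds 1 linear intensity per probe set and array, with no detection calls, and the sources used here do not name the software. After 2% of values were removed at each end, array means differed by 0.0062%, so the deposited intensities appear scaled to one mean, and no normalization was added. The 66 manufacturer controls were left out.

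Symbols came from the platform annotation and were updated by gene identifier for 10817 of 10833 probe sets with 1 symbol. Another 396 had several symbols and 1193 had none. The slope of log2 signal per hour was fitted with limma 3.58.1 in R 4.3.3 (mean-dependent prior, two-sided, Benjamini-Hochberg over 7237 probe sets). Comparisons of single arrays have no test. The limma step was tested on simulated data. Alternatives were other normalizations, floors, filters, thresholds and variance priors, and leaving out each array. Members, lists and tests were chosen with earlier results of these data known. All members are named. Of each pathway list, the genes named are the 2 farthest from 1 h at 2 h, the 2 farthest at 6 h, and a fixed set. Marker genes were named after their values were seen. The motif search and the description by probe set ending were added after the values were seen. Other tools were Python 3.11.15, pandas 2.3.3 and matplotlib 3.10.9. With 4 arrays, precision is limited by their number.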

Additional observations from a re-analysis of the deposited data

Results flagged for a closer look

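For 2 of the 13 tested member probe sets and 1 of those too dim to test, the highest array lay far from the other 3 compared with the whole range of the 4. For 92422_at of Chga it was the 2 h array, at 1211, against 608 to 646 on the other arrays. For 162237_f_at of Scg3 it was the 6 h array, at 949, against 678 to 697. For 161164_r_at of Penk it was the 6 h array, at 82.3, against 5.0 to 16.5, on a probe set too dim to test. Chance flags about 1 in 20 groups in this way, and 6.74% of all 7237 tested probe sets met the same criterion. The brighter or second probe sets of these genes showed no such gap: 162192_f_at of Chga had 156 at 2 h against 369 at 4 h, 104564_at of Scg3 had 1026 at 6 h against 1098 at 1 h, and 94516_f_at of Penk had 2174 at 6 h against 2098 at 4 h.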

How the results depend on the processing

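Limits are 1 array per hour, the dim signals of Pcsk1, Pdyn and 162192_f_at of Chga, and a 2 h array that stands apart. By the 3′ to 5′ ratios the 2 h array was the most even and the other arrays, the 1 h reference included, were less so. No paired analysis was possible because each hour had 1 sample. The counts of member probe sets and genes that moved by over 1.5 times follow, and where no construction shows it, the cause was not tested. A filter at the 60th percentile, which leaves 9 member probe sets, gave 0 for every count at least 2-fold from 1 h, for arrays apart, for ranges of at least 2-fold and for genes past the gap. Without a filter, with 16 member probe sets, 2 were at least 2-fold higher at 2 h and 2 at 6 h, 2 had 1 array above all others, 5 ranged at least 2-fold and 4 genes passed the gap. A threshold of 1.5-fold gave 3 higher and 3 lower at 2 h, 3 with 1 array above all others and 6 in range. Quantile normalization gave 0 higher at 4 h, 2 lower at 2 h, 0 with 1 array above all others and 1 gene past the gap. Median centring, which shifts the median of all probe sets from 1 h by 0.12, 0.11 and 0.14 at 2, 4 and 6 h, gave 1 higher at 4 h and 2 lower at 2 h, with a member median of -0.35 at 2 h. Against the mean of the other 3 arrays, 0 were at least 2-fold higher at 2 h or at 6 h. Among probe sets with no shared or incomplete ending, 0 member genes passed the gap. Leaving out each array in turn gave 1 to 2 member genes past the gap, 1 to 2 probe sets with 1 array above all others, 0 to 1 member slopes called, 0 to 2 member slopes at an unadjusted p under 0.05 and 0 to 32 slopes called in all, with the upper slope counts without the 2 h array. For Pdyn at 4 h the log2 difference was -0.28 to 1.05 over these, with -0.28 against 2 h when the 1 h array was left out. Of 565 single values and counts over all probe sets compared, 77 moved and 1 changed sign, that of Pdyn. Over all probe sets, those at least 2-fold higher at 2 h numbered 205 under the stricter filter, 1129 without one and 501 as reported, and genes past the gap numbered 118, 1157 and 356. Ranges of at least 2-fold numbered 556, 4219 and 1638, and 918 without the 2 h array.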

Other observations

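The endings of probe set names went with the direction of the difference at 2 h, a pattern chosen after the member values were seen and described with no test. Of 586 tested probe sets with the ending _f, which marks probes shared within a sequence family, 67.9% were lower at 2 h than at 1 h. Of 5844 with no letter in the ending, 49.3% were, as were 54.7% of 106 with _i, 44.8% of 212 with _s, 42.4% of 368 with _r and 39.7% of 121 with _g. Among the brightest of 3 equal groups by mean signal the shares were 79.9% of 199 with _f and 57.2% of 1959 with no letter. At 4 h they were 54.6% and 48.9% over all tested probe sets, and at 6 h 51.4% and 47.7%.

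The same held within genes that had an _f probe set and another one. In 201 of 285 such genes (70.5%), the _f probe set had the lower difference from 1 h at 2 h, with a median gap of -0.34 on the log2 scale. At 4 h this was so in 158 genes and at 6 h in 137. Of the 4 members among them, Chga (-2.48), Penk (-1.04) and Cpe (-0.35) had the lower value on the _f probe set at 2 h, and Scg3 (0.19) did not. Among the 13 tested member probe sets, those of Chga, Chgb, Scg3, Cpe and Penk include 1 with this ending each. Of the 7 member probe sets lowest at 2 h, 4 carry this ending, those of Chgb, Scg3, Cpe and Penk. The _f probe set of Chga, 162192_f_at, was lowest at 6 h. Over all 7237 tested probe sets 586 carry the ending, and its share among those lowest at 2 h was not counted. The count of 4 of 7 therefore has no matching background. The 3 comparisons share the 1 h array.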
